A study of Mus musculus with 4 samples.

Results

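The 9 genes described here encode voltage-gated potassium channels of the heart and the small subunits that join them: Kcne1, Kcne2, Kcne3, Kcnq1, Kcnh2, Kcna4, Kcna5, Kcnd2 and Kcnd3. They were taken by the gene name that the array files give to each probe, which gave 13 probes of 41174 that are no control. All 9 genes were measured, among 19100 genes after a filter on dim probes, and 12 of the 13 probes passed that filter. The genes were selected on their log2 ratios in these same data, Kcne3 having been chosen by its high ratio on arrays 1, 3 and 4. The ratios of the 9 genes are therefore a description, and no p-value is given for any of them; counts of calls among them stand only beside the share over all genes.

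RNA came from the atrioventricular canal (AVC) of mouse embryos at e10.5 (the day counted from the mating plug), the segment that joins the early atria to the early ventricles. Control pools were wild type and mutant pools carried a Tbx3 hypomorphic genotype, both on a background of 50% Sv129 and 50% C57Bl6, and each pool held the tissue of 5 hearts. Each of the 4 arrays set 1 control pool (Cy3) against 1 mutant pool (Cy5), 8 pools in all, so the dyes were never swapped and a dye effect on a single gene cannot be told apart from genotype. How the hypomorphic allele was built, and how pooled embryos were related, is not given in the sources used here. Every ratio below is the log2 of mutant over control, given for arrays 1 to 4 in that order and then as mean ± SD over the 4 arrays. A level is the log2 signal of 1 channel after normalization. Levels are compared within a probe only, except in a sum over the chamber muscle markers.

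Voltage-gated potassium channels open when the membrane is depolarised, and the potassium current they carry out of the cell brings a heart muscle cell back to rest. A channel is an assembly of pore-forming alpha subunits, such as the products of Kcnq1, Kcnh2 and the Kcna and Kcnd genes. The Kcne genes encode small proteins with a single membrane span that join an alpha subunit and change how fast and at which voltage the channel opens. TBX3, a T-box transcription repressor, marks the canal and the later conduction system and holds down genes of the working chamber muscle.

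The labels were first set against known genes. The Tbx3 probe gave -1.35, -1.40, -1.43 and -1.21, mean -1.35 ± 0.10 (limma adjusted p = 0.0455), and Tbx3 was the only gene of 19100 past an adjusted p of 0.05. All 6 canal muscle markers and all 6 heart muscle markers were well above background in all 4 control pools. Array 2 stood apart. Over all genes its ratios correlated with those of arrays 1, 3 and 4 at 0.07, -0.06 and -0.02, while the other pairs reached 0.25 to 0.66, across genes, which are not independent replicates. Its ratios had an SD over genes of 0.49, against 0.26 to 0.29 on the others. Control pool 2 was also high in some genes of other tissues, with ratios on array 2 of -4.48 for Hoxa11, -3.68 for Ptprc and -3.07 for Esr1. Most other measured markers of smooth muscle, uterus or white blood cells were below 0 there too. These were Myh11 (-2.46), Tyrobp (-2.11), Lyz2 (-1.997), Csf1r (-0.64) and Cd68 (-0.54). Only Actg2 (0.77), Cnn1 (0.40) and Pf4 (0.12) went the other way. The mean without array 2 is therefore given beside that of each of the 9 genes. For the other named channel genes it is given where it differs by over 1.5 times or in sign. The part of this other tissue in the results below was not tested.

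Among the 9 genes, Kcne3 stood far above the rest with a mean ratio of 2.27, Kcne2 had 0.31 and Kcna5 had -0.31 (0.06 with median centring in place of loess), and the other 6 had means within 0.2 of 0. Means within 0.2 of 0 were found for 78.7% of all genes. Limma's adjusted p was under 0.05 for 0 of the 9, beside 0.00524% of all genes, and the unadjusted p was under 0.05 for 2 genes with higher and 1 with lower means, beside 14.5% of all genes. Without array 2 the first count was 1 of 9, namely Kcne3, when 194 genes passed in all, but arrays 1, 3 and 4 are those by which Kcne3 was chosen. After loess, 4 of the 9 had ratios of 1 sign on all 4 arrays, which 24.9% of all genes had: 2 above 0 (Kcne2 and Kcne3; 12.3% of all genes) and 2 below 0 (Kcna4 and Kcna5; 12.6%). In 2 of the 9 the 4 mutant levels did not overlap the 4 control levels, Kcne3 above and Kcna5 below, as in 3.89% and 5.11% of all genes. Since the ratios chose these genes, nothing is read from these counts. The median of the 9 means was 0.04, and 0.02 without Kcne3, beside 0.0012 over all genes.

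**Figure D1:**
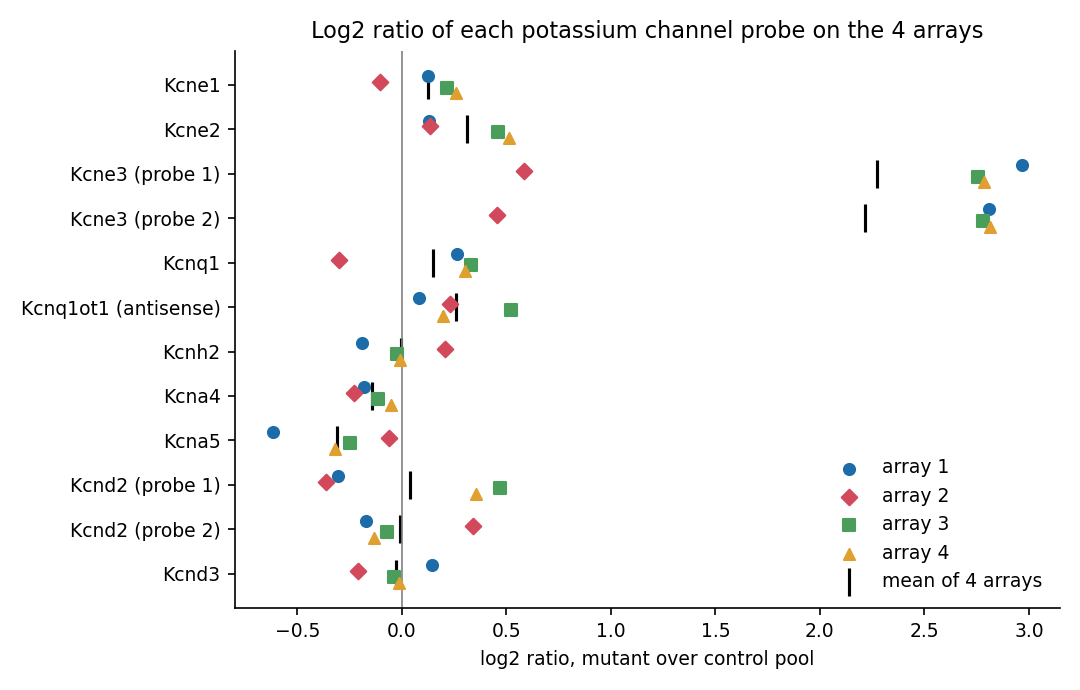
Log2 ratio of mutant over control (horizontal axis) for each probe that passed the filter, with 1 coloured point per array and a black bar at the mean of the 4 arrays. Both Kcne3 probes lie between 2.76 and 2.97 on arrays 1, 3 and 4 and at 0.59 and 0.45 on array 2, while no other probe passes 0.62 in size on any array.

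Kcne3 encodes a subunit that, with KCNQ1, makes a potassium channel that stays open over a wide voltage range, and it also joins other alpha subunits. Of its 2 probes, the brighter (A_51_P336599, chr7:96230794-96230853, mm7, plus strand) stands for the gene in the comparisons. The other (A_52_P243425, chr7:96230672-96230731, plus strand) lies just upstream. Its sequence is shown so that the second reading of this gene can be checked. Read as the RNA, only 1 of its frames has no early stop triplet, and that frame ends at one, in capitals, on the last 3 bases; whether this is the end of the coding sequence was not checked against an annotation.
Kcne3 second probe: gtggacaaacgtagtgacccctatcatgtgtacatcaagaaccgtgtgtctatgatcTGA

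In the control pools the brighter Kcne3 probe had levels of 8.42, 9.12, 8.75 and 8.63, and in the mutant pools 11.39, 9.71, 11.50 and 11.41. Mutant pools 1, 3 and 4 were high and close together, mutant pool 2 was lower, and control pool 2 was the highest of the controls. Still, the lowest mutant pool lay above the highest control pool. The ratios were 2.97, 0.59, 2.76 and 2.79, mean 2.27 ± 1.13, or 7.83-fold, 1.502-fold, 6.76-fold and 6.90-fold higher in the mutant, with a mean on the log2 scale that equals 4.84-fold. Without array 2 the mean was 2.84 ± 0.11. By the mean ratio Kcne3 ranked 1 of 19100 genes, and by single arrays it ranked 2, 389, 4 and 2.

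The second Kcne3 probe repeated this pattern on the same pools. Its control levels were 8.23, 8.84, 8.49 and 8.26 and its mutant levels 11.04, 9.30, 11.27 and 11.07. The ratios were 2.81, 0.45, 2.78 and 2.82, mean 2.21 ± 1.17, and 2.80 ± 0.02 without array 2, and on each array the probes differed by less than 0.2. Both probes read the same RNA of the same pools, so they check the probe and not the animals.

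Before any correction, the brighter probe read 260 (control) and 3573 (mutant) on array 1, 412 and 1275 on array 2, 295 and 3678 on array 3, and 275 and 3155 on array 4. Local background lay between 33 and 58, and no Kcne3 spot was saturated. The signal was thus well above background in all 8 channels. The smaller ratio on array 2 came from both of its pools: mutant pool 2 lay 1.73 below the mean level of the other mutant pools (11.44), and control pool 2 lay 0.52 above that of the other controls (8.60).

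**Figure D2:**
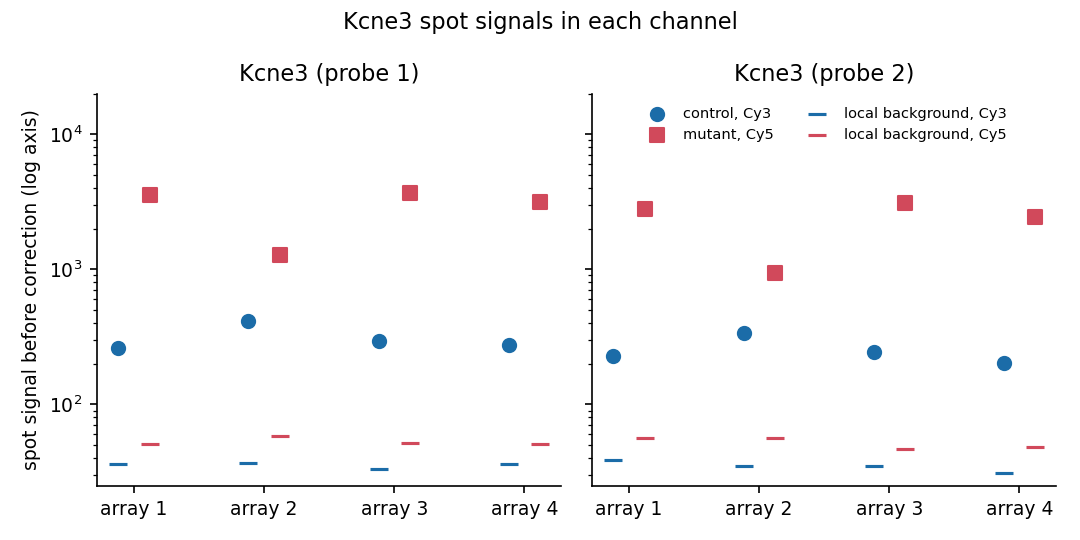
Spot signals of the 2 Kcne3 probes before correction (vertical log axis) on each array, with circles for the control pool (Cy3), squares for the mutant pool (Cy5) and dashes for the local background of each dye. On every array the mutant signal lies above the control signal, and on array 2 (412 and 1275 for probe 1) the gap is the narrowest of the 4.

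The median ratio of chamber muscle markers was likewise smallest on array 2. The 6 markers had medians of 0.68, 0.07, 1.43 and 0.89, with 5 of 6 means above 0. The exception, Gja5, had -0.11 ± 0.16, with its highest ratio, 0.02, on array 2. Their summed linear level ran from 157122 to 193661 in control pools and from 182506 to 429962 in mutant pools. This sum adds levels over probes, so the brightest, Nppa and Myl2, weigh most in it. All 6 markers were well above background in every control pool. The 6 canal muscle markers, Tbx3 itself among them, had medians of -0.82, -0.07, -0.72 and -0.44. Of these only Tbx2 had a mean above 0, 0.28 ± 0.24. On array 2 the canal list was split, with Tbx3 at -1.40, Cacna1g at -1.31 and Rspo3 at -0.35. Bmp2 (0.48), Msx2 (0.21) and Tbx2 (0.55) were above 0 there. The 6 heart muscle markers had medians of 0.17, 0.80, 0.64 and 0.30, highest on array 2. In pooled tissue, fewer cells of a type and less RNA per cell cannot be told apart, and the part of chamber muscle in the Kcne3 values was not tested.

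The 5 genes with the smallest Euclidean distance to Kcne3 over the ratios of the 4 arrays, of 19097 compared, were Chac1 (distance 1.18), Nppb (1.67), Egln3 (2.02), Esm1 (2.11) and Nppa (2.20). Chac1, which encodes an enzyme that breaks down glutathione, had ratios of 2.78, -0.47, 2.70 and 2.30. Nppb and Nppa, which encode natriuretic peptides of chamber muscle, had 2.25, 0.51, 2.06 and 1.45, and 1.38, 0.13, 2.12 and 1.48. All 5 had their smallest ratio on array 2, as Kcne3 had. Egln3, an oxygen-sensing prolyl hydroxylase, had 2.35, 0.13, 1.73 and 1.23. Esm1, a secreted endothelial proteoglycan, had 2.23, -1.20, 2.15 and 2.17, and the -1.20 sits on the array whose control pool was high in genes of other tissues. The distance was computed on the same ratios that chose Kcne3.

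**Figure D3:**
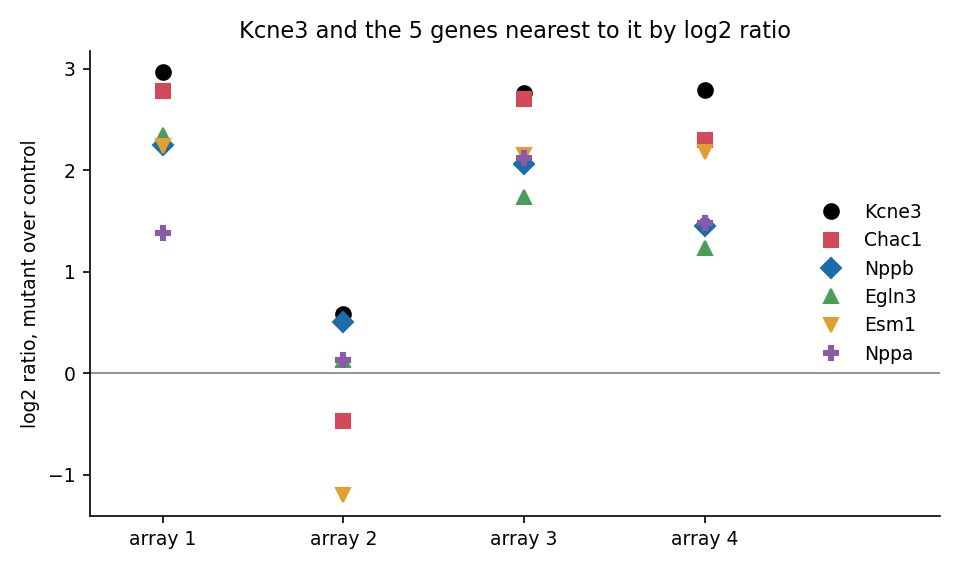
Log2 ratio of mutant over control (vertical axis) on each of the 4 arrays for Kcne3 and the 5 genes nearest to it by these ratios, with 1 symbol per gene. On arrays 1, 3 and 4 all 6 genes lie between 1.23 and 2.97, and on array 2 they lie between -1.20 and 0.59.

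The promoters of Kcne3 are shown because TBX3 is a repressor that binds T-box sites in DNA. RefSeq (GRCm38.p6) gives Kcne3 a pair of start sites, and each window holds 250 bases before and 50 after the start on the plus strand, at chr7:100176420-100176719 and chr7:100178433-100178732. The motifs searched, on both strands, were the T-box element AGGTGTGA and the shorter T-box core GGTGTG, which is contained in the element. Also searched on both strands was ACGTG, 1 form of the core of the hypoxia response element. It was added because Egln3 is a textbook target of that response. The form GCGTG was not searched. Neither Kcne3 window held either T-box motif. The first held 1 ACGTG, in capitals, 140 bases before the start. The second held no ACGTG, but its printed sequence contains GCGTG, which is not marked.
Kcne3 first promoter: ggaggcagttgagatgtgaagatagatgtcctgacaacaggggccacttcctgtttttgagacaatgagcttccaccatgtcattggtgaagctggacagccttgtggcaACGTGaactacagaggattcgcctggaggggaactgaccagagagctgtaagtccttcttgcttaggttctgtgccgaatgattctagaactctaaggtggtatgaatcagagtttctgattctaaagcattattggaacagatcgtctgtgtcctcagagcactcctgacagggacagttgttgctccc
Kcne3 second promoter: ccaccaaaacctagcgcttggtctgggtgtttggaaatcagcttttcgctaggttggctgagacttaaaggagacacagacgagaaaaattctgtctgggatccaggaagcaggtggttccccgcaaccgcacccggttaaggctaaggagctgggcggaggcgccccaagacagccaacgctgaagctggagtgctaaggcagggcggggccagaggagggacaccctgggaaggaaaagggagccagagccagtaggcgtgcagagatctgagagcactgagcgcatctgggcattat

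Of 32851 RefSeq promoter windows of this length, 1.28% held the T-box element, 19.0% the T-box core and 19.6% ACGTG. Windows were found for 7 of the 9 genes, 9 windows in all, and not for Kcne1 and Kcnq1. The T-box element was in 0 of these 9 windows and the T-box core in 3, those of Kcna4, Kcnd3 and the second of Kcne2. ACGTG was in 2, the first window of Kcne2 and the first of Kcne3. GCGTG was not counted, either in these windows or over all windows. A match is only a match of letters, and these windows cover a small part of the DNA around each gene.

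Kcne2 encodes a subunit that joins KCNH2, KCNQ1 and other alpha subunits, and it was the other Kcne gene with a ratio above 0 on all 4 arrays. Its probe (chr16:92348256-92348315, mm7) had control levels of 9.005, 8.51, 9.03 and 8.98 and mutant levels of 9.13, 8.64, 9.497 and 9.49. Both pools of array 2 were the lowest of their group, so the groups overlapped although each mutant pool lay above its own control. The ratios were 0.13, 0.14, 0.46 and 0.51, mean 0.31 ± 0.21, and 0.37 ± 0.21 without array 2. The mean equals 1.24-fold.

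Kcne1 encodes the subunit that joins KCNQ1 to form the slow delayed rectifier current. Its measured probe (chr16:92401009-92401068, minus strand) had control levels of 11.56, 11.69, 11.96 and 11.92 and mutant levels of 11.69, 11.59, 12.18 and 12.17. The groups overlapped, and arrays 3 and 4 were higher than arrays 1 and 2 in both channels. The ratios were 0.13, -0.11, 0.22 and 0.26, mean 0.12 ± 0.16, and 0.20 ± 0.07 without array 2, the only array with a ratio below 0. A second Kcne1 probe (chr16:92398529-92398588) was not well above background in any of the 8 channels and gives no value.

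Kcnq1 encodes the alpha subunit that the Kcne proteins join. Its probe (chr7:139854115-139854174, plus strand) had control levels of 9.34, 9.49, 9.44 and 9.41, a spread of 0.06 (SD), and mutant levels of 9.60, 9.19, 9.77 and 9.71, a spread of 0.26. Mutant pools 1, 3 and 4 lay above all controls and mutant pool 2 below all of them. The ratios were 0.27, -0.30, 0.33 and 0.30, mean 0.15 ± 0.30, and 0.30 ± 0.03 without array 2, so 1 array sets both the size of the mean and its spread. The mean over all 4 was smaller than its SD.

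A second probe that the files name Kcnq1 (A_52_P618494, chr7:139684939-139684998) lies on the minus strand, opposite to Kcnq1, and the accession the files list for it is that of Kcnq1ot1, the long antisense RNA transcribed from within Kcnq1. RefSeq places Kcnq1ot1 on the minus strand too. The probe is printed so that its identity can be checked, and it is not counted as Kcnq1 here.
Kcnq1ot1 probe: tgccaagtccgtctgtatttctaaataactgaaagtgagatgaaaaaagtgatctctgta
Its ratios were 0.08, 0.23, 0.52 and 0.20, mean 0.26 ± 0.19. The other Kcnq1ot1 probe (A_52_P619388) gave -0.51, -0.31, 0.85 and -0.38, mean -0.09 ± 0.63. The probes had opposite signs on arrays 1, 2 and 4, so no direction is given for Kcnq1ot1.

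Kcnh2 encodes the alpha subunit of the rapid delayed rectifier current. Its probe (chr5:23361863-23362135, a span of 273 bases, minus strand) had control levels of 11.19, 10.93, 11.18 and 10.95 and mutant levels of 11.00, 11.14, 11.16 and 10.94. The groups covered nearly the same range. The ratios were -0.19, 0.20, -0.02 and -0.0071, mean -0.0041 ± 0.16, and -0.07 ± 0.10 without array 2.

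**Figure D4:**
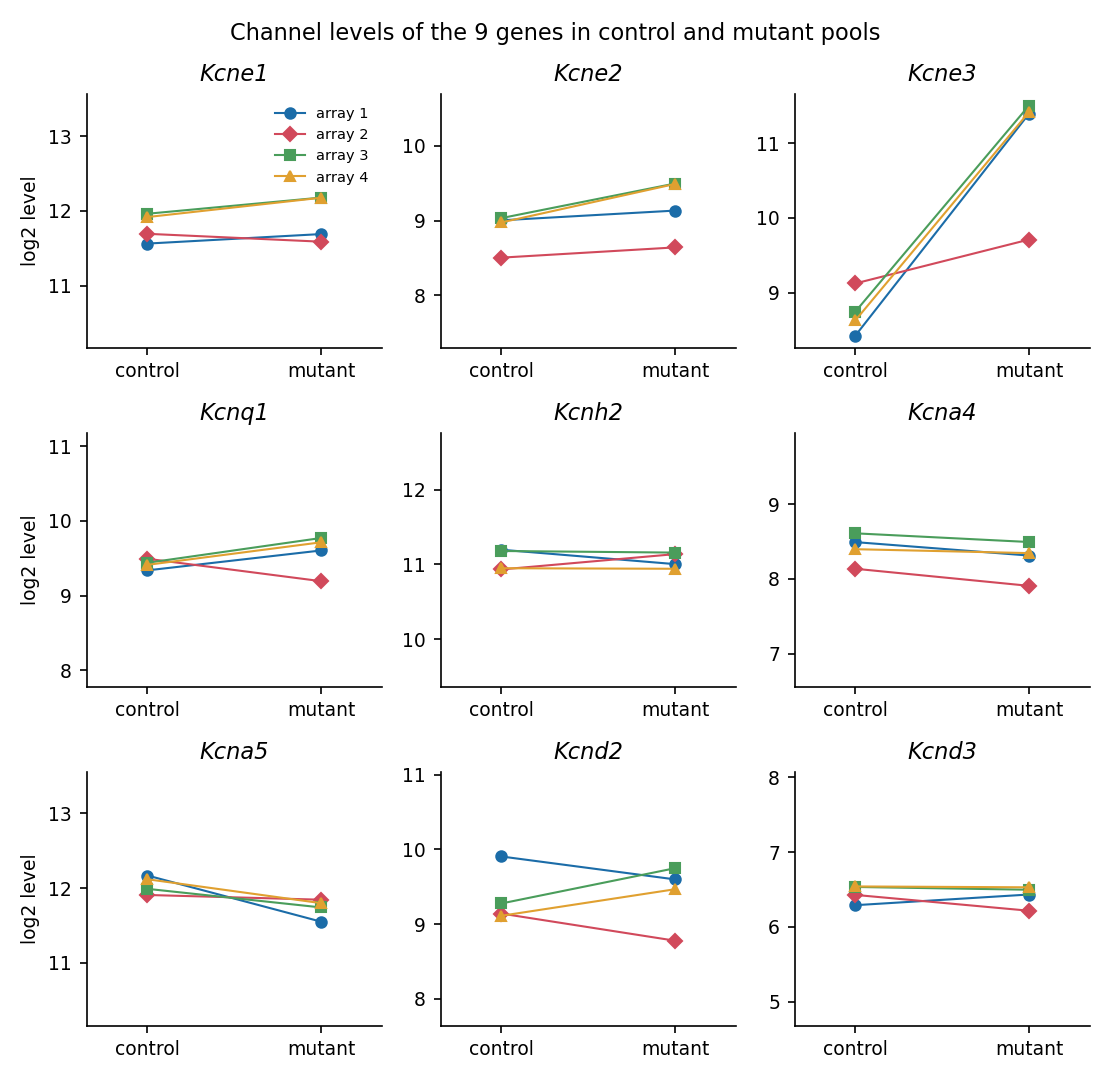
Log2 channel levels (vertical axes, all spanning the same range) of the 9 genes, with a line from the control pool to the mutant pool of each array. For Kcne3 the 4 mutant pools (9.71 to 11.50) lie above the 4 control pools (8.42 to 9.12), and for Kcna5, after loess, they lie below by a far smaller step.

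Kcna5 encodes the alpha subunit of the ultra-rapid delayed rectifier current, known best from atrial muscle. Its probe (chr6:126555354-126555413, minus strand) had control levels of 12.17, 11.91, 11.99 and 12.12 and mutant levels of 11.55, 11.85, 11.74 and 11.80. Every control pool lay above every mutant pool, with the narrowest gap between control pool 2 and mutant pool 2. The ratios were -0.62, -0.06, -0.25 and -0.32, mean -0.31 ± 0.23, or 1.24-fold higher in the control, and -0.40 ± 0.20 without array 2. With median centring of the arrays in place of loess the mean was 0.06, where the median over all genes was 0.23, so relative to that median it was -0.17.

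Kcna4 encodes an alpha subunit of the slowly recovering transient outward current. Its probe (chr2:107148704-107148763) had control levels of 8.49, 8.13, 8.61 and 8.40 and mutant levels of 8.31, 7.91, 8.49 and 8.34. The groups overlapped, with or without array 2, but each mutant pool lay below its own control. The ratios were -0.18, -0.23, -0.12 and -0.05, mean -0.14 ± 0.08, and -0.12 ± 0.06 without array 2. With median centring the mean of Kcna4 was 0.02, or -0.21 relative to the median of all genes.

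Kcnd2 and Kcnd3 encode the alpha subunits of the fast transient outward current. The brighter Kcnd2 probe (chr6:21665679-21665738) had control levels of 9.91, 9.14, 9.28 and 9.11 and mutant levels of 9.60, 8.78, 9.75 and 9.47. Its ratios were -0.31, -0.36, 0.47 and 0.35, mean 0.04 ± 0.43 (0.17 ± 0.42 without array 2), so arrays 1 and 2 went one way and arrays 3 and 4 the other. A second Kcnd2 probe (A_51_P406527) has 60 bases that the files place over a span of 1000 bases, chr6:21662299-21663298, so it joins separate stretches of the gene, as a probe over an exon junction would. It is shown because it can be checked against the spliced Kcnd2 RNA.
Kcnd2 spanning probe: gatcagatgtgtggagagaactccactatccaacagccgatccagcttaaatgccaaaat
This probe was dim, though well above background in 4 of 4 control and 4 of 4 mutant channels. Its control levels were 6.91, 6.43, 6.66 and 6.65 and its mutant levels 6.74, 6.77, 6.59 and 6.52. The ratios were -0.17, 0.34, -0.07 and -0.13, mean -0.0077 ± 0.23, and -0.12 ± 0.05 without array 2. The Kcnd2 probes had opposite signs on arrays 2, 3 and 4, and their means without array 2 also had opposite signs, so no direction is given for Kcnd2.

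The Kcnd3 probe (chr3:105485267-105486387, a span of 1121 bases) was the dimmest kept, well above background in 3 of 4 control and 4 of 4 mutant channels. Its control levels were 6.29, 6.43, 6.54 and 6.54 and its mutant levels 6.43, 6.22, 6.50 and 6.53, which overlap throughout. The ratios were 0.14, -0.21, -0.04 and -0.01, mean -0.03 ± 0.15, and 0.03 ± 0.10 without array 2, so the sign turns with that array. A change at this brightness would be hard to see, since ratios shrink toward 0 as the signal nears background.

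Other genes of the same channel class were then counted, from a list of every other Kv alpha, beta, KChIP, DPP and Kcne gene. Of 46 names, 42 were on the array and 24 were measured; Kcne1l and Kcne5 are names of 1 gene, measured as Kcne1l, so Kcne5 is not a further gene missing from the array. A mean above 0 was found for 16 and below 0 for 8, beside 9608 and 9492 of all 19100 genes. The median was 0.08, beside 0.0012 over all genes. By limma 0 of the 24 passed an adjusted p of 0.05 and 4 had an unadjusted p under 0.05, 3 higher and 1 lower, beside 14.5% of all genes. Ratios were above 0 on all 4 arrays for 5 genes and below 0 for 1, beside 12.3% and 12.6% of all genes. Without array 2, 1 gene passed, Dpp6, when 194 of 19100 genes passed in all.

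The highest mean was that of Dpp6, which encodes a partner that speeds Kcnd channels. Its ratios were 0.74, 0.47, 0.91 and 0.57, mean 0.67 ± 0.19 (limma adjusted p = 0.131), above 0 on 4 of 4 arrays. A second Dpp6 probe gave 0.94, 0.07, 1.61 and 0.16, mean 0.69 ± 0.72, the same direction with a far wider spread. That probe was dimmer, with a mean log2 brightness of 6.70 against 7.75 for the first. Next came Kcnq5, an alpha subunit related to Kcnq1, at 0.24 ± 0.12 (limma adjusted p = 0.250), with 0.10 ± 0.11 on its second probe. After it came Kcnf1, an alpha subunit that is silent alone, at 0.20 ± 0.62, or 0.49 ± 0.32 without array 2.

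Of the 3 lowest means, 2 rested largely on array 2. Kcna1, an alpha subunit best known from nerve, had -0.36, -2.52, 0.02 and 0.06, mean -0.70 ± 1.23, and Kcns3, a silent alpha subunit, had 0.18, -1.24, -0.24 and -0.05, mean -0.34 ± 0.63. Without array 2 these means were -0.09 ± 0.23 and -0.04 ± 0.21. Control pool 2, high in genes of other tissues, enters both of these array 2 values. Kcnab2, a beta subunit, had -0.42, -0.39, -0.04 and -0.23, mean -0.27 ± 0.17 (limma adjusted p = 0.264), below 0 on all 4 arrays.

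Of the other Kcne genes, Kcne1l (also named Kcne5) had -0.33, -0.20, 0.60 and 0.55, mean 0.15 ± 0.49 (0.27 ± 0.52 without array 2), and so split by array as the brighter Kcnd2 probe did. Kcne4 was well above background in 1 control and 1 mutant channel only. Kcnip2, the main KChIP partner of Kcnd channels in adult heart, was so in 0 of 8 channels.

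Calcium-activated and two-pore potassium channels, which are not opened by voltage alone, served as a comparison from outside the class. Kcnt1 and Kcnt2, which encode sodium-activated channels, are counted here with the calcium-activated ones. Of 24 genes listed, 22 were on the array and 15 were measured. A mean above 0 was found for 4 and below 0 for 11, beside 9608 and 9492 of all 19100 genes. The median was -0.08. By limma 0 of the 15 passed an adjusted p of 0.05 and 3 had an unadjusted p under 0.05, 1 higher and 2 lower, beside 14.5% of all genes. Without array 2 the median was 0.01, so the sign of the median rests on that array.

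Kcnmb2, a partner of the large calcium-activated channel, was lowest with -0.32, -0.42, -0.30 and -0.60, mean -0.41 ± 0.14 (limma adjusted p = 0.143). Its probe was dim, with mean levels of 6.94 in control and 6.53 in mutant pools. Kcnk3, a two-pore channel of heart muscle, had -0.24, -0.23, -0.54 and -0.41, mean -0.36 ± 0.15 (limma adjusted p = 0.171), while its second probe gave -0.15 ± 0.20. Kcnmb2 and the brighter Kcnk3 probe were below 0 on 4 of 4 arrays, while the second Kcnk3 probe had 0.10 on array 1. Kcnk1, another two-pore channel, had -0.28 ± 0.75 with -1.31 on array 2, and 0.06 ± 0.36 without it. The highest was Kcnmb1, a further partner of the large calcium-activated channel, at 0.28 ± 0.13 (limma adjusted p = 0.208). Its second probe gave 0.12 ± 0.13, with -0.05 on array 4. Then came Kcnk13 at 0.13 ± 0.27 and Kcnt1 at 0.05 ± 0.08. Without array 2 the last 2 were 0.25 ± 0.16 and 0.01 ± 0.04.

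**Figure D5:**
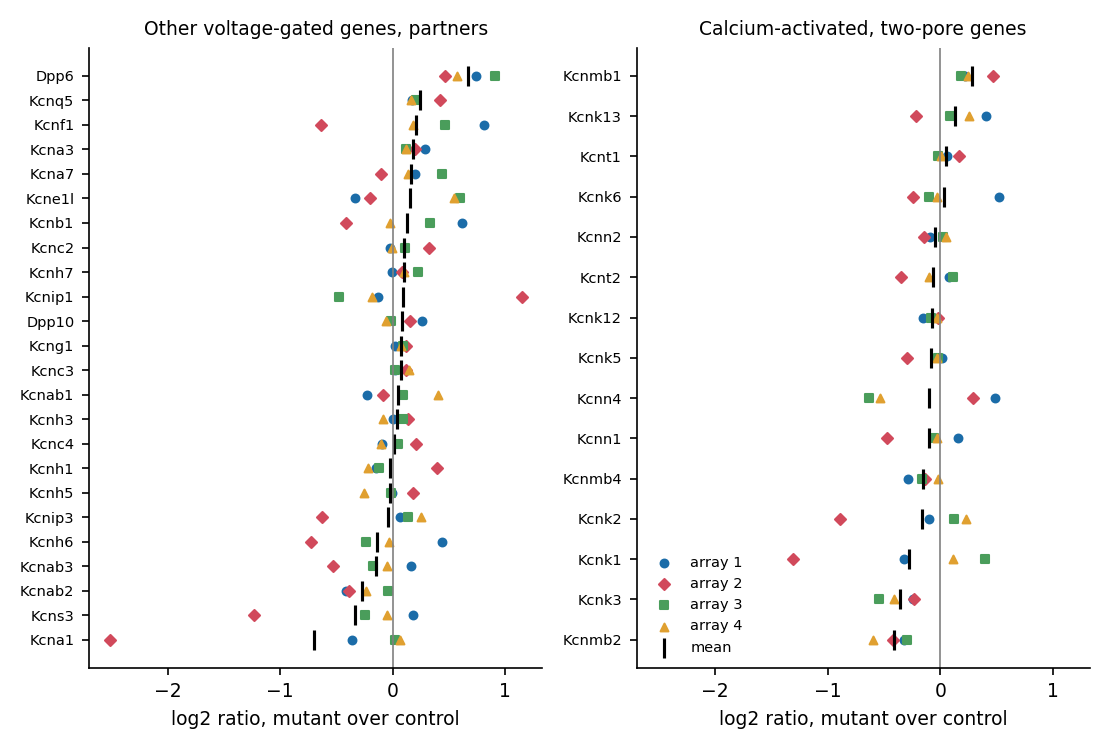
Log2 ratio of mutant over control (horizontal axes) on each array, with a black bar at the mean, for the 24 measured genes of the other voltage-gated list (left) and the 15 measured calcium-activated and two-pore genes (right). The means span -0.70 to 0.67 on the left and -0.41 to 0.28 on the right, and the widest points, such as -2.52 for Kcna1, are those of array 2.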

How the data were processed

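Two-colour Agilent arrays measured 4 control and 4 mutant pools. The authors read them with Agilent Feature Extraction 9.5.1, per the submitters' processing notes. Each deposited intensity is a spot's mean over its pixels in 1 channel, and its local background (median) stands beside it. The deposited log10 ratio, red over green after the software's own correction, and the deposited series table of log10 ratios agreed to within 5e-07, and served as an alternative. All 4 arrays shared 1 slide and 1 scan, per the file headers, so neither could be tested as a batch. The number of arrays limits the precision.

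From the intensity, background was corrected with normexp (offset 50), arrays were normalized within themselves by loess, spots marked non-uniform were dropped and repeat spots averaged (limma 3.58.1, R 4.3.3). Log2 ratios and, after Aquantile, log2 channel levels were computed by this route. A probe was kept where 3 or more arrays had a channel well above background (28806 of 41174 probes), with 1 probe per gene by highest mean brightness. Names were updated through a RefSeq table: 22951 probes by accession, 124 by a listed RefSeq accession, 6582 by current symbol, 3077 by synonym, and 8440 kept theirs. All genes were tested together with lmFit and eBayes against 0, 2-sided, with Benjamini-Hochberg adjustment, after the code was tested on simulated data.

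The genes and lists were chosen with earlier results of these data known. The text names all 9 genes with every probe, Tbx3, the 3 highest and 3 lowest of each channel list and the 5 genes nearest to Kcne3. Other Kcne genes, Kcnip2 and markers of other tissues were named after their values were seen. Probe positions are those the files give for mm7, whose annotation was not used here. P-values measure the spread between pools. Each array pairs a mutant with a control pool of 1 number. Alternatives were median centring, the software's ratio, other background and filter settings, separate channels, and each array left out.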

Additional observations from a re-analysis of the deposited data

Results flagged for a closer look

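In 6 of 36 groups of 4 values (ratios, control levels and mutant levels of 12 probes), 1 value lay far from the other 3; chance gives about 1 in 20 such groups. All 6 belonged to array 2, and 4 of them to Kcne3. Kcne3 was chosen by its ratio on arrays 1, 3 and 4, so the count is not set against the chance rate. Why its values differed on array 2 was not tested. The Kcne3 ratio was 0.59 there against 2.76 to 2.97 on the others, and 0.45 against 2.78 to 2.82 for its second probe. The Kcne3 level in mutant pool 2 was 9.71 against 11.39 to 11.50 in the other mutant pools, and 9.30 against 11.04 to 11.27 for the second probe. The Kcnq1 ratio was -0.30 on array 2 against 0.27 to 0.33. The Kcne2 level in control pool 2 was 8.51 against 8.98 to 9.03 in the other controls. The values on probes of 1 gene share their pools and are not separate events.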

How the results depend on the processing

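The Kcne3 mean ratio kept its direction under all 14 alternatives, from 2.04 to 2.84. Of 125 values of the 9 genes under the alternatives, 119 moved by less than the spread between arrays and 6 by more, all 6 with median centring in place of loess: Kcne1 0.49, Kcne2 0.53, Kcnh2 0.33, Kcna4 0.02, Kcna5 0.06 and Kcnd3 -0.23. The median over all genes was then 0.23 and that of the 9 genes 0.33. Over all 14 alternatives the median of the 9 ranged from -0.0030 to 0.33. Requiring both channels above background left out Kcnd3.

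The count of genes past an adjusted p of 0.05, 1 in the fit reported, was 7780 with median centring (7202 higher, 578 lower), 3 with the scanner software's ratio (all 3 higher), and 0 with no background subtraction, with an offset of 10 and with the mean over probes, where 2808, 2655 and 2541 genes had an unadjusted p under 0.05. Leaving out each array in turn gave 0 to 194 genes, and the 194 (131 higher, 63 lower) came without array 2. Without array 1, 3 or 4 the count was 0, with 2184, 1499 and 1536 genes at an unadjusted p under 0.05. Treating the channels as separate samples, with no replicate block for the pairing of pools on an array, gave 187 genes (128 higher, 59 lower). Kcne3 and Dpp6 passed there and without array 2. With median centring 5 of the 9 genes passed (Kcne1, Kcne2, Kcne3, Kcnq1 and Kcnh2), beside 7780 of 19100 genes. Of the other channel lists 8 genes passed then, Dpp6 among them. As the ratios chose the 9 genes, nothing is read from these counts. The cause was not tested for any of these.

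The median of the other voltage-gated list ranged from 0.02 to 0.14 and that of the calcium-activated and two-pore list from -0.12 to 0.01; these were added after the data were seen. Brightness limits Kcnd3 and the spanning Kcnd2 probe. The second Kcne1 probe, Kcne4 and Kcnip2 give no value.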
